A study of Sus scrofa with 297 samples.

Results

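The liver transcripts of pigs with a large loin were set against those of pigs with a small loin, at a middle fat area that both groups shared. The loin eye area (LEA) is the cut surface of the long back muscle at the last ribs, and the fat area (FA) is the fat lying over it. Pigs with an FA between 11 and 17 cm2 were kept, large loin was an LEA of 47.5 cm2 or more, and small loin was an LEA of 40 cm2 or less. This gave 37 pigs with a large loin and 24 pigs with a small loin, 61 of the 297 pigs of the series. A further 63 pigs of the fat band had an LEA between these limits, and 8 pigs had no traits in the labels. All animals were adult German Landrace pigs, a lean meat breed, that were sampled at slaughter, each pig had its own number and its own array, and the labels named neither sex nor any treatment. The groups were therefore formed by body composition alone, in animals that differed in much else.

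The liver and muscle trade nutrients throughout growth. The liver takes up amino acids that muscle releases or does not use, turns their nitrogen into urea and their carbon into glucose or fat, and exports lipids and plasma proteins. It also answers growth hormone by secreting insulin-like growth factor 1, and answers glucocorticoids by raising enzymes that break amino acids down.

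LEA was 47.5 cm2 at the lowest, 50 cm2 at the median and 61.6 cm2 at the highest in large-loin pigs, against 27.8, 38.6 and 39.8 cm2 in small-loin pigs. The nearest pigs outside these limits had an LEA of 47.2 cm2 and 40.4 cm2. FA averaged 13.8 ± 1.76 cm2 in large-loin pigs and 14.1 ± 1.80 cm2 in small-loin pigs (SD, n = 37 and 24). The difference in FA of -0.21 cm2 was smaller than this spread, with p = 0.657 in a 2-sided permutation test with 100000 resamples. Both groups were limited to the same fat band, so a small difference follows in part from the selection. The p does not show that FA was equal. The third trait in the labels is called a meat to fat ratio, but its values equalled FA divided by LEA, within 0.01, in 289 of 289 pigs. It was 0.28 at the median in large-loin pigs and 0.4 in small-loin pigs, which follows from how the groups were formed.

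**Figure D1:**
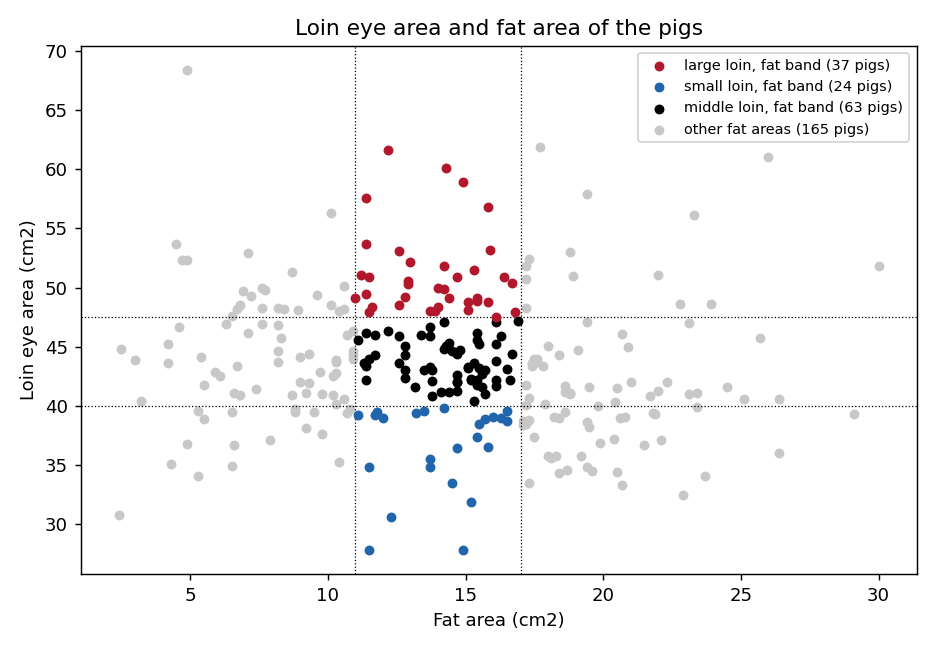
Each point is 1 pig, with its fat area on the horizontal axis and its loin eye area on the vertical axis, both in cm2, and dotted lines mark the limits of the fat band and of the loin groups. The 37 large-loin and 24 small-loin pigs covered the same span of fat area.

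RNA was hybridised to Affymetrix Snowball arrays, on which each probe set gives 1 signal and a gene can have several probe sets. Signals are on a log2 scale, so that a difference of 1 is a doubling. Pairs of the compared arrays correlated with r between 0.921 and 0.988, and no pair held identical values. The animal numbers begin with 2 digits, called the number series here, whose meaning the labels do not state. The groups were spread unequally over these series. Series 21, 22 and 23 held 13, 3 and 7 large-loin pigs and no small-loin pig, whereas series 27 held 9 small-loin pigs and no large-loin pig. Series 24 held 2 small-loin pigs and series 26 held 1 large-loin pig. Large-loin and small-loin pigs met only in series 25 (3 and 1), series 28 (1 and 4) and series 29 (9 and 8). The main comparison leaves the series out, and the values with the series as a block in the model are given beside the leading genes. In that fit only series 25, 28 and 29 inform the loin difference.

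At a false discovery rate (FDR) of 5% in limma, 452 of 47722 probe sets differed between large and small loin (0.947%). Of these 258 were higher in large-loin pigs (0.541% of all tested) and 194 were lower (0.407%). The differences were small: among those higher the median was 0.30 and the largest 0.83, among those lower the median was -0.35 and the largest -0.97, and none reached a doubling or a halving. A symbol was known for 245 of the 452 probe sets, which stood for 228 different genes. The balance of directions depended on faint probe sets and on the scaling. The dimmest 20% of probe sets by mean signal gave 97 higher and 0 lower calls, the remaining probe sets gave 161 higher and 194 lower calls, and when each array was centred on its median there were 601 higher and 167 lower calls. All 24 leading genes named below were above the dimmest 20% and remained called after that centring.

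The gene with the smallest p belongs to phospholipid metabolism. LPCAT3 inserts polyunsaturated fatty acids into membrane phospholipids. Its signal was 11.08, 11.55 and 12.06 in large-loin pigs (lowest, median, highest), against 10.32, 11.08 and 11.57 in small-loin pigs. The groups overlapped, but all 37 large-loin pigs were above the small-loin median. The difference was 0.53 ± 0.079 (SE), a 1.44-fold higher level in large-loin pigs with an FDR of 0.000313 in limma, the smallest of all named genes. LPCAT3 was 0.24 higher with the series as a block, with an FDR of 0.201, which no longer passed. It had 5 probe sets on the array, of which 1 was called.

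FASN, the enzyme that builds palmitate, had signals of 11.15, 12.28 and 13.13 in large-loin pigs, against 10.98, 11.88 and 12.44 in small-loin pigs. It rose by 0.49 ± 0.10 (FDR 0.00922 in limma), and 32 of 37 large-loin pigs exceeded the small-loin median. ELOVL6, which lengthens palmitate, rose by 0.40 ± 0.11 (FDR 0.0435) from a lower signal, 4.69 at the median in large-loin pigs and 4.26 in small-loin pigs. Neither held with the series as a block, where FASN differed by 0.29 (FDR 0.281) and ELOVL6 by -0.0036 (FDR 0.993). These were the only called genes among 13 measured genes of fatty acid synthesis, whose median difference was 0.12 against -0.0032 over the 13660 genes with a symbol. Of those 13660 genes 0.981% were called by their brightest probe set, the share to set beside each list count below. The list median was 0.17 with the block, against 0.069 over all genes with a symbol, and 0.0026 in pigs outside the fat band. SCD, the stearoyl-CoA desaturase, differed by 0.37 and ACACA, the acetyl-CoA carboxylase, by 0.22, without passing (FDR 0.407 and 0.457).

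ECHS1 and CPT2, enzymes that burn fatty acids, also rose. ECHS1 hydrates enoyl-CoA in mitochondrial beta-oxidation. Its signal was 10.55, 10.97 and 11.45 in large-loin pigs, against 10.33, 10.64 and 11.03 in small-loin pigs, and 34 of 37 large-loin pigs were above the small-loin median. ECHS1 rose by 0.32 ± 0.056 (FDR 0.00152 in limma), and with the series as a block the difference was 0.43 ± 0.083 (FDR 0.00654). It was 0.46, 0.34 and 0.33 higher in large-loin pigs within series 29, 28 and 25 taken one by one. CPT2, which releases fatty acids from carnitine inside mitochondria, rose by 0.39 ± 0.088 (FDR 0.0174) and differed by 0.28 with the block (FDR 0.141). CPT2 was 1 call among 23 measured genes of a list for fatty acid oxidation and ketogenesis, which did not hold ECHS1. PXMP4, a peroxisomal membrane protein, rose by 0.36 ± 0.070 (FDR 0.0042) and differed by 0.24 with the block (FDR 0.128).

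LPIN1 went the other way. It makes diacylglycerol from phosphatidic acid and also acts as a transcriptional coactivator. Its signal was 7.4, 8.27 and 9.35 in large-loin pigs, against 7.65, 8.8 and 10.56 in small-loin pigs, and 32 of 37 large-loin pigs were below the small-loin median. LPIN1 fell by 0.74 ± 0.16 (FDR 0.0123 in limma), or to 0.601-fold of its small-loin level, and 2 of its 3 probe sets were called. With the series as a block the difference was -0.090 (FDR 0.843). No other gene among 16 of triglyceride synthesis and lipid droplets was called, and of 15 genes of cholesterol synthesis none was called. Of 17 genes of apolipoproteins and lipoprotein metabolism none was called by its brightest probe set, and APOB and LIPC were by another. APOB is the structural protein of lipoproteins, and its called probe set, 1 of 6, was 10.17, 11.46 and 12.08 in large-loin pigs, against 10.53, 11.8 and 12.53 in small-loin pigs. It fell by 0.46 ± 0.12 (FDR 0.0454) and by 0.62 with the block (FDR 0.0184). LIPC, hepatic lipase, fell by 0.27 by 1 of 2 probe sets (FDR 0.0435) and differed by -0.14 with the block (FDR 0.499).

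Mitochondrial electron transport gave calls in both directions. COQ6, an enzyme of ubiquinone synthesis, had signals of 8.86, 9.17 and 9.39 in large-loin pigs, against 8.49, 8.975 and 9.3 in small-loin pigs. It rose by 0.24 ± 0.045 (FDR 0.00392 in limma), with 35 of 37 large-loin pigs above the small-loin median, and kept 0.25 with the series as a block (FDR 0.0128). COX6C, a subunit of cytochrome c oxidase, was lower, at 8.47, 8.86 and 9.63 in large-loin pigs against 8.77, 9.29 and 9.86 in small-loin pigs. COX6C fell by 0.40 ± 0.069 (FDR 0.00152), but differed by -0.16 with the block (FDR 0.326). NDUFC2, a subunit of complex I, rose by 0.33 ± 0.065 (FDR 0.00593) and differed by 0.27 with the block (FDR 0.0803). ATP5G1, a subunit of ATP synthase, was 10.5, 11.04 and 11.58 in large-loin pigs, against 10.22, 10.84 and 11.23 in small-loin pigs, and rose by 0.23 ± 0.060 (FDR 0.0397), and by 0.29 with the block (FDR 0.0196). NDUFC2 and ATP5G1 were named after their values were seen. None of these was in the list for the nuclear-encoded respiratory chain, of whose 22 measured genes none was called, 11 were higher and 11 lower, with a median of 0.0021. SLC25A4, the mitochondrial exchanger of ADP and ATP, differed by 0.14 (FDR 0.105), and NSUN3, a methyltransferase for mitochondrial tRNA, by 0.24 (FDR 0.220).

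Among genes of amino acid handling, SLC38A4 was a leading fall. It brings amino acids such as alanine into hepatocytes. Its signal was 9.71, 10.94 and 11.63 in large-loin pigs, against 10.68, 11.36 and 12.01 in small-loin pigs, and 34 of 37 large-loin pigs were below the small-loin median. SLC38A4 fell by 0.50 ± 0.091 (FDR 0.00273 in limma) and by 0.58 ± 0.13 with the series as a block (FDR 0.00834). It was lower in large-loin pigs within series 29, 28 and 25, by differences of -0.65, -0.47 and -0.32. A second, brighter probe set of the gene was also called in both fits, with differences of -0.28 and -0.40. Of 15 amino acid transporters measured, no other was called.

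No enzyme among 28 of amino acid transamination and breakdown was called. Of the 28, 19 were lower in large-loin pigs, with a median of -0.037, and 9 had an unadjusted p below 0.05 in limma. Over all 47722 probe sets, 7555 had an unadjusted p below 0.05. With the series as a block the median of the 28 enzymes was 0.070 against 0.069 over all genes with a symbol, so the lean was not seen there. TAT, the first enzyme of tyrosine breakdown, differed by -0.26 ± 0.073 and stood just outside the threshold (FDR 0.0599 in limma). SDS, a serine dehydratase, differed by -0.69 (FDR 0.188), GPT2, a mitochondrial alanine transaminase, by -0.49 (FDR 0.298), and GOT1, the cytosolic aspartate transaminase, by -0.16 (FDR 0.342). OAT, which starts ornithine breakdown, differed by -0.47 (FDR 0.104). With the block SDS differed by -0.24 (FDR 0.786), GPT2 by -0.44 (FDR 0.531), OAT by -0.25 (FDR 0.536) and GOT1 by 0.014. Of 8 urea cycle genes and arginases none was called by its brightest probe set, and 4 were higher and 4 lower.

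ARG2, the mitochondrial arginase, had 8 probe sets on the array, 3 of them called, all lower in large-loin pigs. The probe set with the smallest p had signals of 4.55, 5.14 and 6.01 in large-loin pigs, against 4.82, 5.545 and 6.64 in small-loin pigs, and fell by 0.43 ± 0.10 (FDR 0.0203 in limma). The brightest probe set differed by -0.26 ± 0.14 (FDR 0.351). All 8 had negative differences, and none passed with the series as a block.

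Glucocorticoid targets leaned downward without any call. Of 17 measured genes, 15 were lower in large-loin pigs, 7 had an unadjusted p below 0.05 and 0 passed the FDR, and the median was -0.16 against -0.0032 over all genes with a symbol. SGK1, a kinase induced by corticosteroids, differed by -0.36 (FDR 0.332), DUSP1, a phosphatase that silences MAP kinases, by -0.35 (FDR 0.119), and ZBTB16, a zinc finger factor, by -0.33 (FDR 0.188). With the block SGK1 differed by 0.12 (FDR 0.819), DUSP1 by -0.049 (FDR 0.906) and ZBTB16 by 0.16 (FDR 0.627). With the series as a block the median of the 17 genes was 0.066 against 0.069 over all genes, so the shift was not seen there.

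Among growth hormone and insulin genes, 1 of 21 was called, where 0.981% of all genes with a symbol were called. IRS1 passes the signal of the insulin and IGF1 receptors into the cell. Its signal was 7.64, 8.18 and 8.91 in large-loin pigs, against 7.65, 8.55 and 9.41 in small-loin pigs, and 33 of 37 large-loin pigs were below the small-loin median. IRS1 fell by 0.42 ± 0.094 (FDR 0.0146 in limma) and differed by -0.34 with the block (FDR 0.141). IGF1 itself had signals of 8.65, 10.14 and 11.34 in large-loin pigs, against 8.56, 9.74 and 11.04 in small-loin pigs. The groups overlapped over most of their range, the difference of 0.34 ± 0.17 did not pass (FDR 0.327), and with the block it was -0.30 (FDR 0.477).

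**Figure D2:**
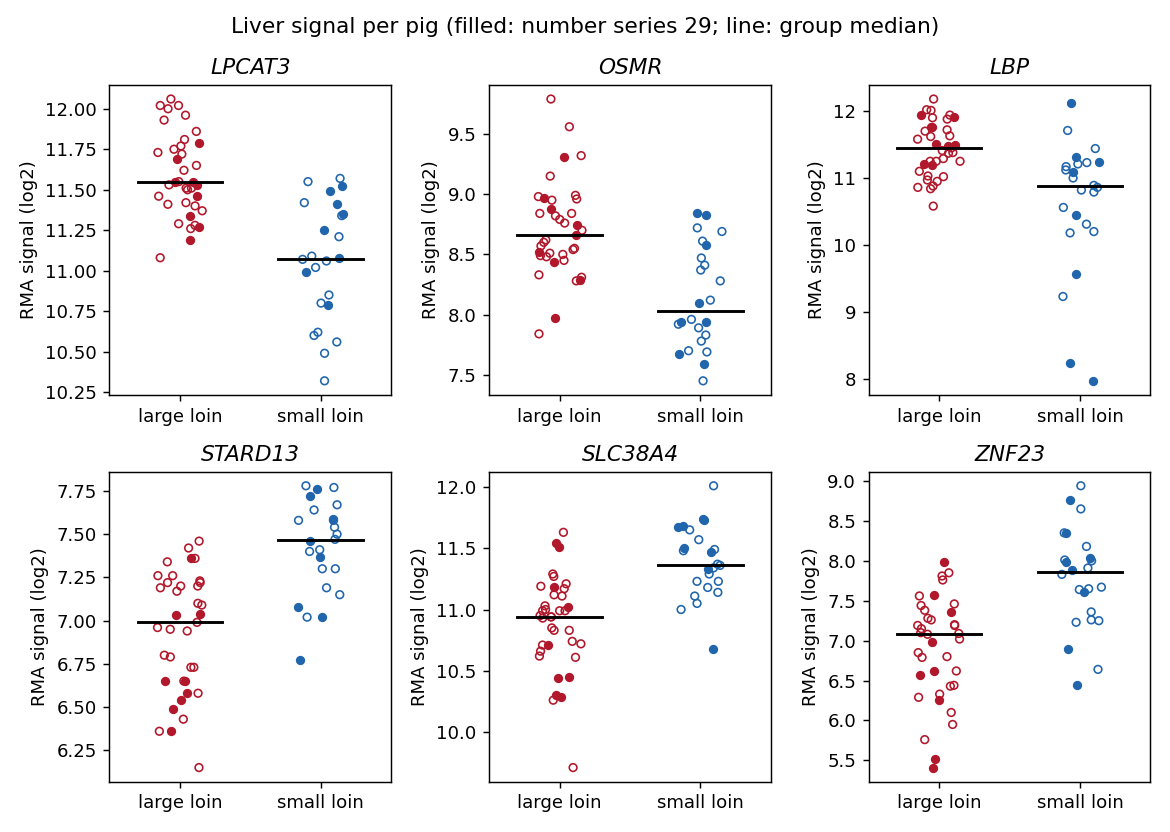
Each point is the log2 RMA signal of 1 pig for the named gene, large loin left and small loin right, filled for number series 29 and open for the other series, with a line at the group median. LPCAT3, OSMR and LBP were higher in large-loin pigs (medians 11.55, 8.66 and 11.45, against 11.08, 8.03 and 10.88) and STARD13, SLC38A4 and ZNF23 lower, with overlap in all 6.

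A cytokine receptor and a secreted acute phase protein were among the genes that rose. OSMR is the receptor chain through which oncostatin M drives acute phase genes in hepatocytes. Its signal was 7.84, 8.66 and 9.79 in large-loin pigs, against 7.45, 8.03 and 8.84 in small-loin pigs, and 35 of 37 large-loin pigs were above the small-loin median. OSMR rose by 0.57 ± 0.11, or 1.49-fold (FDR 0.00312 in limma), and by 0.52 ± 0.17 with the series as a block (FDR 0.0477). LBP, the secreted protein that presents bacterial lipopolysaccharide to its receptor, had the largest rise of all called probe sets. Its signal was 10.58, 11.45 and 12.18 in large-loin pigs, against 7.97, 10.88 and 12.12 in small-loin pigs. Small-loin pigs were more widely scattered and reached far lower values than any large-loin pig.

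LBP rose by 0.83 ± 0.18, or 1.78-fold (FDR 0.0103 in limma), and by 1.11 ± 0.29 with the block (FDR 0.0146), and 2 of its 3 probe sets were called. Of 20 measured acute phase proteins 10 were higher and 10 lower, with a median of 0.0006, LBP was the only call by a brightest probe set, and A2M, a protease inhibitor, fell by 0.27 by another probe set (FDR 0.0277). OSMR was the only call among 16 genes that carry cytokine signals to acute phase genes, whose median was 0.080. SLC39A14, a zinc and iron importer, rose by 0.30 ± 0.066 (FDR 0.0123) and differed by 0.30 with the block (FDR 0.0692).

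The 3 collectins and clotting factors that were called did not share a direction. SFTPA1, surfactant protein A, a collectin best known from lung, had signals of 6.11, 7.24 and 9.17 in large-loin pigs, against 5.21, 6.68 and 7.69 in small-loin pigs, and rose by 0.78 ± 0.15 (FDR 0.00393 in limma). MBL2, mannose-binding lectin, a liver collectin that starts complement activation, had signals of 8.5, 9.72 and 11.47 in large-loin pigs, against 9.33, 11 and 11.85 in small-loin pigs. MBL2 fell by 0.81 ± 0.20 (FDR 0.033), with both of its probe sets called, and 29 of 37 large-loin pigs were below the small-loin median. F11, coagulation factor XI, had signals of 9.83, 10.31 and 11.06 in large-loin pigs, against 10.32, 10.68 and 11.1 in small-loin pigs. F11 fell by 0.32 ± 0.065 (FDR 0.00593) and by 0.34 with the series as a block (FDR 0.0274), while SFTPA1 and MBL2 did not pass there (FDR 0.122 and 0.203). F11 and MBL2 were the 2 calls among 23 genes of complement and coagulation, where 0.981% of all genes with a symbol were called.

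Some leading genes act in the nucleus and are given together here. They were grouped after their values were seen, and the share of such genes among all genes was not counted. ASCC1, a subunit of a transcription coactivator complex, was 6.02, 7.16 and 8.2 in large-loin pigs, against 7.27, 7.94 and 8.5 in small-loin pigs. It fell by 0.61 ± 0.10, to 0.657-fold, with the smallest FDR of the genes that fell (0.00133 in limma). With the series as a block the ASCC1 difference was -0.31 and did not pass (FDR 0.182). ZNF23, a zinc finger protein, was 5.41, 7.08 and 7.98 in large-loin pigs, against 6.44, 7.855 and 8.94 in small-loin pigs, and 36 of 37 large-loin pigs were below the small-loin median. ZNF23 fell by 0.87 ± 0.16 (FDR 0.00352), and by 0.87 ± 0.25 with the series as a block (FDR 0.0257). DNMT3B, a de novo DNA methyltransferase, showed the largest fall of all called probe sets, 0.97 ± 0.19 (FDR 0.00593), but 1 of its 5 probe sets was called and the block gave an FDR of 0.334.

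PTMA, prothymosin alpha, fell by 0.43 ± 0.080, with both probe sets called, and SNRNP48, a protein of the minor spliceosome, fell by 0.30 ± 0.062 (FDR 0.00352 and 0.00657 in limma). With the block PTMA differed by -0.16 (FDR 0.359) and SNRNP48 by -0.21 (FDR 0.128), and neither passed. POLR2G, a subunit of RNA polymerase II, went up. It was 8.4, 8.82 and 9.24 in large-loin pigs, against 7.97, 8.35 and 9.31 in small-loin pigs, and all 37 large-loin pigs were above the small-loin median. POLR2G rose by 0.43 ± 0.067 (FDR 0.000435), and its difference with the block was 0.25 (FDR 0.100).

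The other leading genes had various roles. STARD13, a protein with a START lipid-binding domain, was 6.15, 6.99 and 7.46 in large-loin pigs, against 6.77, 7.465 and 7.78 in small-loin pigs. All 37 large-loin pigs were below the small-loin median. STARD13 fell by 0.49 ± 0.083 (FDR 0.00152 in limma) and by 0.54 ± 0.13 with the series as a block (FDR 0.00847). OCLN, occludin of the tight junctions that seal bile canaliculi, was 7.49, 8.26 and 8.85 in large-loin pigs, against 7.8, 8.705 and 9.13 in small-loin pigs. OCLN fell by 0.46 ± 0.084 (FDR 0.00273) and by 0.46 with the block (FDR 0.0153).

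PERP, a desmosomal protein and p53 target, was 10.04, 10.58 and 10.97 in large-loin pigs, against 9.71, 10.26 and 10.65 in small-loin pigs. PERP rose by 0.31 ± 0.058 (FDR 0.00388 in limma) and was the only call among 14 genes of the p53 list, but with the block it differed by 0.18 (FDR 0.211). VMA21, which assembles the proton pump of acidic organelles, was 7.91, 8.26 and 8.56 in large-loin pigs, against 7.47, 7.945 and 8.42 in small-loin pigs. VMA21 rose by 0.32 ± 0.050 (FDR 0.00045) and by 0.23 with the block (FDR 0.0424). BRI3BP rose by 0.31, PIGC, which begins the synthesis of membrane anchors for surface proteins, by 0.28, and EGLN3, a prolyl hydroxylase that marks hypoxia-inducible factors for decay, by 0.48. With the block the differences were 0.22 for BRI3BP (FDR 0.0637), 0.22 for PIGC (FDR 0.103) and 0.27 for EGLN3 (FDR 0.213), and none of the 3 passed. NID1, nidogen of basement membranes, fell by 0.30, but differed by -0.15 with the block (FDR 0.194). LOC100515348, a gene without a name, fell by 0.40 and by 0.44 with the block (FDR 0.0127).

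Drug-metabolising enzymes gave 1 call among 22 measured genes of phase I and 1 among 13 of phase II conjugation and transport, where 0.981% of all genes with a symbol were called. CES1, a carboxylesterase that also splits stored lipid esters, was 11.4, 12.34 and 13.07 in large-loin pigs, against 12.08, 12.95 and 13.36 in small-loin pigs. CES1 fell by 0.48 ± 0.10 (FDR 0.0116 in limma), 33 of 37 large-loin pigs were below the small-loin median, and the block gave -0.18 (FDR 0.354). GSTA1, a glutathione transferase, fell by 0.16 ± 0.039 (FDR 0.0238), with 2 of 3 probe sets called, and differed by -0.065 with the block (FDR 0.492).

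Across all 56 gene lists, which covered 765 measured genes, 7 genes rose and 7 fell by their brightest probe sets. The share called among the brightest probe sets of all 13660 genes with a symbol was 0.981%. In 44 lists no gene was called this way, and 52 list medians lay within 0.1 of 0. Gluconeogenesis (9 genes), glycolysis and fructose metabolism (14), bile acid synthesis and transport (8), interferon response (20), the circadian clock (16) and proteasome subunits (25) held no call by any probe set.

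**Figure D3:**
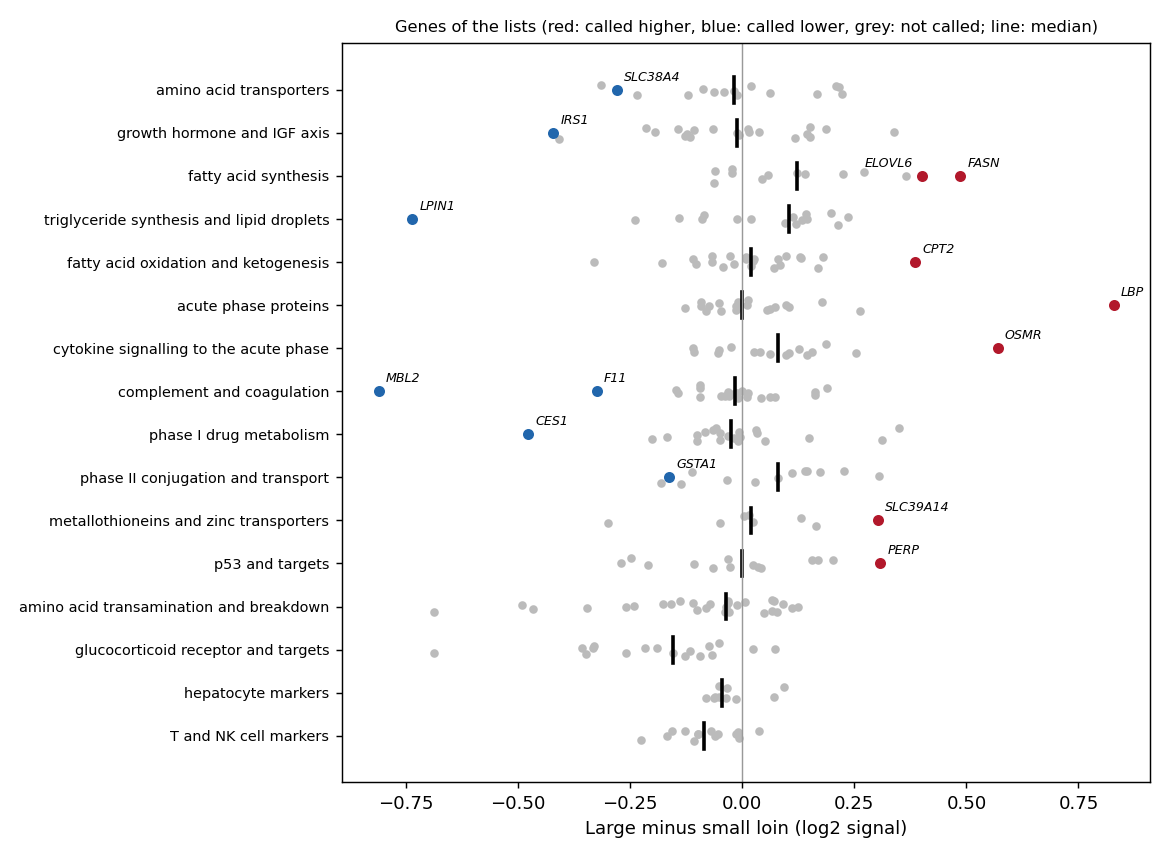
Each point is 1 gene at its log2 difference, large minus small loin, on the horizontal axis, with the gene lists down the page and a line at each list median. Called genes are red where higher and blue where lower and carry their names, for the 12 lists with a call and 4 lists without one, at the foot.

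The cell make-up of the samples was looked at through marker genes. All 10 hepatocyte markers were measured and bright, and their mean signal ranged between 11.63 and 11.82 in large-loin pigs, as in small-loin pigs. Of 14 T and NK cell markers, 13 were lower in large-loin pigs and none was called, the median was -0.084, with the block 0.059 and in series 29 alone 0.13, and their mean signal ranged between 6.216 and 6.774 in large-loin pigs, against 6.256 and 7.107 in small-loin pigs. The mean signal of 10 Kupffer cell markers ranged between 8.467 and 9.624 in large-loin pigs, against 8.715 and 9.162 in small-loin pigs, and that of 5 red blood cell markers between 6.874 and 8.996 in large-loin pigs, against 6.934 and 8.358 in small-loin pigs. No marker of the lists for liver, blood, muscle, fat or pancreas cells was called by its brightest probe set. By another probe set APOB fell, as given above, and so did 2 of 11 skeletal muscle markers, MYH4, a myosin heavy chain, by 0.28 (FDR 0.00657) and TNNI2, a troponin, by 0.37 (FDR 0.0443). With the block MYH4 differed by -0.17 (FDR 0.206) and TNNI2 by 0.057 (FDR 0.834). The mean signal of the 11 muscle markers ranged between 5.636 and 6.265 in large-loin pigs, against 5.785 and 6.294 in small-loin pigs, and their median difference of -0.050 was 0.12 with the block. The part of cell make-up in the called genes was not tested, and in whole tissue fewer cells of a type and less RNA per cell cannot be told apart.

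Other measures differed between the loin groups. The second principal component over all 297 arrays held 6.57% of the variance, with 75.3% of its own variance between number series. It averaged 9.65 in large-loin pigs and -9.07 in small-loin pigs (permutation p = 0.00011, 0.00066 after Benjamini-Hochberg adjustment over 6 components). The permutations here and below moved pigs freely across number series, so their p-values do not separate loin size from series. The second component followed the mean signal of the dimmest 20% of probe sets (r = 0.903 over 297 arrays), which was 2.932 ± 0.107 in large-loin pigs and 2.837 ± 0.0863 in small-loin pigs (SD). With this component as a covariate 43 probe sets were called higher and 47 lower, and 9 of the 24 leading genes passed. The components 5 and 6 also differed (adjusted permutation p = 0.0121 and 0.00345), whereas the first, with 17.9% of the variance, did not pass (p = 0.859).

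A probe set of KDM6A and one of EIF2S3, genes on the X chromosome with a counterpart on the Y chromosome, fell into a low and a high class with an empty gap between them. The KDM6A probe set was in the high class, 6.71 or more, in 10 of 37 large-loin pigs and in 14 of 24 small-loin pigs, and EIF2S3 gave the same counts. Their combined score differed by -0.65 SD units (permutation p = 0.0124). With this score as a covariate, 604 probe sets were called, 346 higher and 258 lower, and all 24 leading genes still passed.

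**Figure D4:**
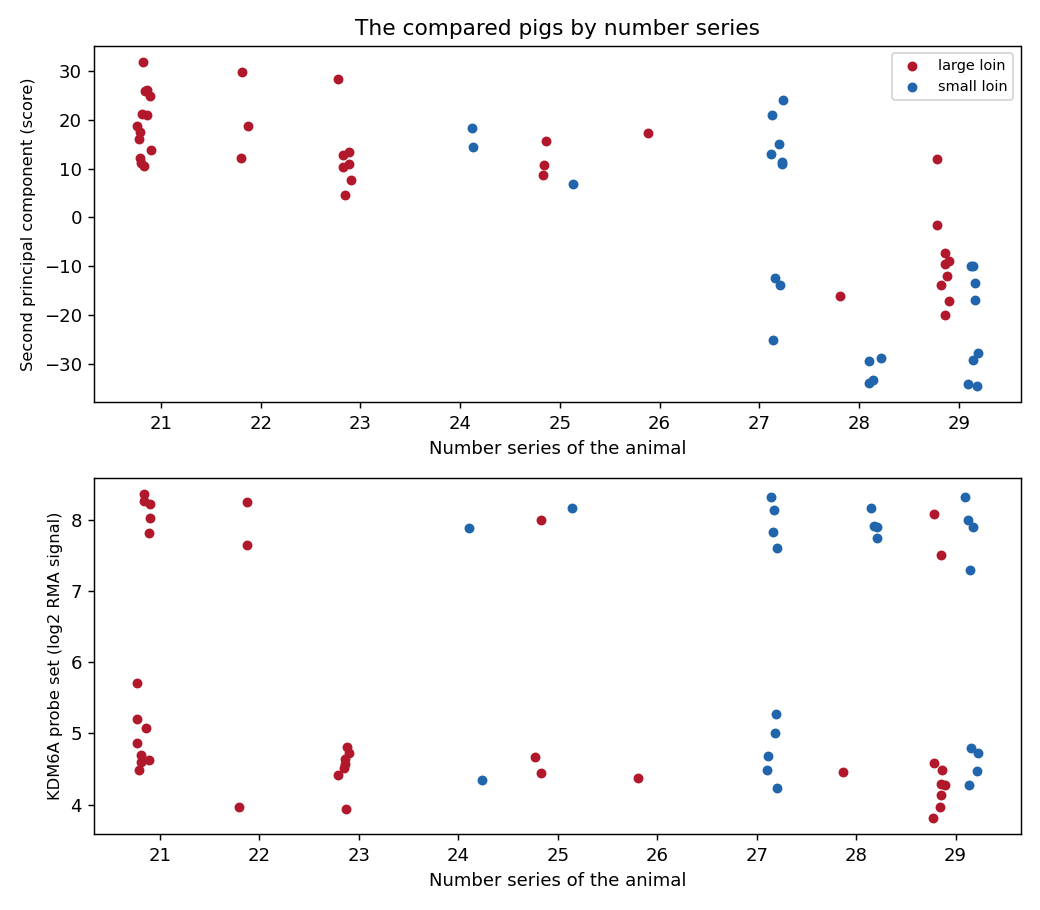
Each point is 1 of the 61 pigs, large loin left and small loin right within each number series on the horizontal axis, with the score on the second principal component above and the log2 signal of the KDM6A probe set below. Series 21 to 23 held only large-loin pigs and high component scores, and series 28 and 29 held most of the low scores.

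With the number series as a block, 3291 probe sets were called (6.90%), 840 higher in large-loin pigs (1.76%) and 2451 lower (5.14%). Of the 452 probe sets of the comparison without the series, 428 kept their direction (94.7%), compared with 57.3% of all probe sets, and 194 of them had an unadjusted p below 0.05. Both fits use the same 61 pigs, and the 452 were chosen in the first, so this describes how far the values moved and is no separate evidence. Called in both fits were 70 probe sets, 40 higher and 30 lower. Among the 24 leading genes all kept their direction, 21 had p below 0.05 and 10 passed the FDR: ECHS1, COQ6, OSMR and VMA21 rose, and STARD13, SLC38A4, OCLN, ZNF23, F11 and LOC100515348 fell. With the series as a random block, whose consensus correlation was 0.165, 9 probe sets were called higher and 9 lower. The count without a block was 241 when series 21 was left out and 997 when series 27 was left out, and 9 when the loin limits were drawn further apart, at 49 and 39 cm2.

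The blocked comparison rested on few animals. In series 29 alone, with 9 large-loin and 8 small-loin pigs, 0 probe sets passed in limma and 9156 had an unadjusted p below 0.05. The first principal component averaged 28.8 ± 32.1 in large-loin pigs of that series and -13.1 ± 31.1 in small-loin pigs (SD). Adding this component to the block left 0 calls, with 2455 probe sets at p below 0.05, and removing the 5 most extreme pigs on it also left 0 calls, with 5641. The direction of all 24 leading genes held with block and component together, and 6 had p below 0.05.

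Of the 765 list genes, 32 were called higher (4.18%) and 59 lower (7.71%) with the block, compared with 3.40% and 6.75% of the brightest probe sets of all 13660 genes with a symbol. Glycolysis and fructose metabolism had 5 of 14 genes higher and none lower. ALDOA, aldolase, differed by 0.31, GPI, glucose-6-phosphate isomerase, by 0.32, and TPI1, triose phosphate isomerase, by 0.33, with ENO1 (0.29) and PGAM1 (0.25) beside them. Complement and coagulation had 7 of 23 lower, with C5 at -0.47 and C9 at -0.25, and 1 higher, F10 at 0.23. Mitochondrial translation and RNA modification had 6 of 25 lower, among them MRPL1 (-0.79) and GFM1 (-0.54), and 1 higher, TUFM (0.30). Without the block ALDOA, C5 and MRPL1 differed by -0.023, -0.031 and -0.12, and none of the 3 passed. GHR, the growth hormone receptor, differed by -0.59 (FDR 0.00981 with the block) and by -0.12 without it (FDR 0.620). The 3291 blocked calls were also looked up in pigs outside the fat band, fitted with FA and the series. There 1469 had the same direction (44.6%), compared with 46.3% of all probe sets. An unadjusted p below 0.05 in limma was seen for 29 in the same and 26 in the opposite direction.

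Pigs outside the fat band offered the same contrast in other animals. They were 37 large-loin and 53 small-loin pigs with an FA below 11 or above 17 cm2, compared with FA as a covariate. Of 47722 probe sets 7 were called (0.0147%), 2 of them of ARG2. Of the 452 probe sets called in the fat band, 390 had the same direction outside it (86.3%), compared with 62.1% of all probe sets, and 77 of the 390 had an unadjusted p below 0.05. Their median difference in that direction was 0.081 outside the band and 0.31 within it. With the series in the model as well, 300 of 452 (66.4%) kept the direction, compared with 54.4% of all probe sets. In that fit 28 of the 300 had an unadjusted p below 0.05 in limma, and 8 probe sets had one in the opposite direction.

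All 24 leading genes had the same direction outside the band and 6 had p below 0.05 there, namely PERP, SFTPA1, EGLN3, PXMP4, COX6C and ZNF23. SFTPA1 was 0.46 ± 0.13 higher and ZNF23 was 0.38 ± 0.15 lower in large-loin pigs outside the band (p = 0.000778 and 0.00881, limma, unadjusted). LPCAT3 differed by 0.091 and OSMR by 0.061 (p = 0.229 and 0.669). The ARG2 probe set with the largest fold there differed by -0.67 outside the band and by -0.84 within it, but was not called outside (FDR 0.141 in limma). The ARG2 probe sets called outside differed by -0.64 and -0.58 there, and by -0.66 and -0.37 within the band. These outside values come from the fit without the series. With the series in that fit as well, 3 of the 24 leading genes had p below 0.05 in the same direction. EGLN3 then differed by 0.064 and COX6C by -0.032 (p = 0.569 and 0.565, limma, unadjusted).

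A set of 19 probe sets was called in the fat band and had p below 0.05 in the same direction both with the series as a block and outside the band. The fit outside the band that was used for this had FA but not the series in it. This set was chosen after its values were seen. Of the 19, 14 were higher and 5 lower in large-loin pigs, and 15 had a symbol. Beside PERP, SFTPA1, EGLN3, PXMP4, ZNF23 and ARG2, it held NDUFC2, a subunit of respiratory complex I, LCLAT1, which remodels cardiolipin, GSN, which severs actin filaments, TUBA8, a tubulin, SIRPA, a receptor that restrains macrophages, UNC5D, a netrin receptor, and TMEM167B, all higher. SLC5A9, a sugar transporter, and FOXP1, a forkhead repressor, were lower.

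UNC5D was 6, 6.81 and 7.68 in large-loin pigs, against 5.45, 6.295 and 7.21 in small-loin pigs, and rose by 0.43 ± 0.11 (FDR 0.0384 in limma), by 0.69 ± 0.17 with the block (FDR 0.0123), and differed by 0.46 outside the band (p = 0.000112). SIRPA was 5.95, 7.12 and 7.95 in large-loin pigs, against 6.2, 6.7 and 7.42 in small-loin pigs. It rose by 0.40 ± 0.11 (FDR 0.048), by 0.50 ± 0.16 with the block (FDR 0.0461), and differed by 0.31 outside the band (p = 0.0018). Both overlapped between the groups over much of their range.

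The loin difference itself was compared between pigs inside and outside the band. FA was not a covariate in this fit, unlike in the outside differences given above. In limma 0 of 47722 probe sets had a different loin effect at an FDR of 5%, and 3267 had an unadjusted p below 0.05. VMA21 came nearest, its loin difference being 0.30 larger inside the band (FDR 0.390), and LPCAT3 was 0.47 larger inside (FDR 0.390). A difference in loin effect between the bands was thus not shown for any probe set.

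**Figure D5:**
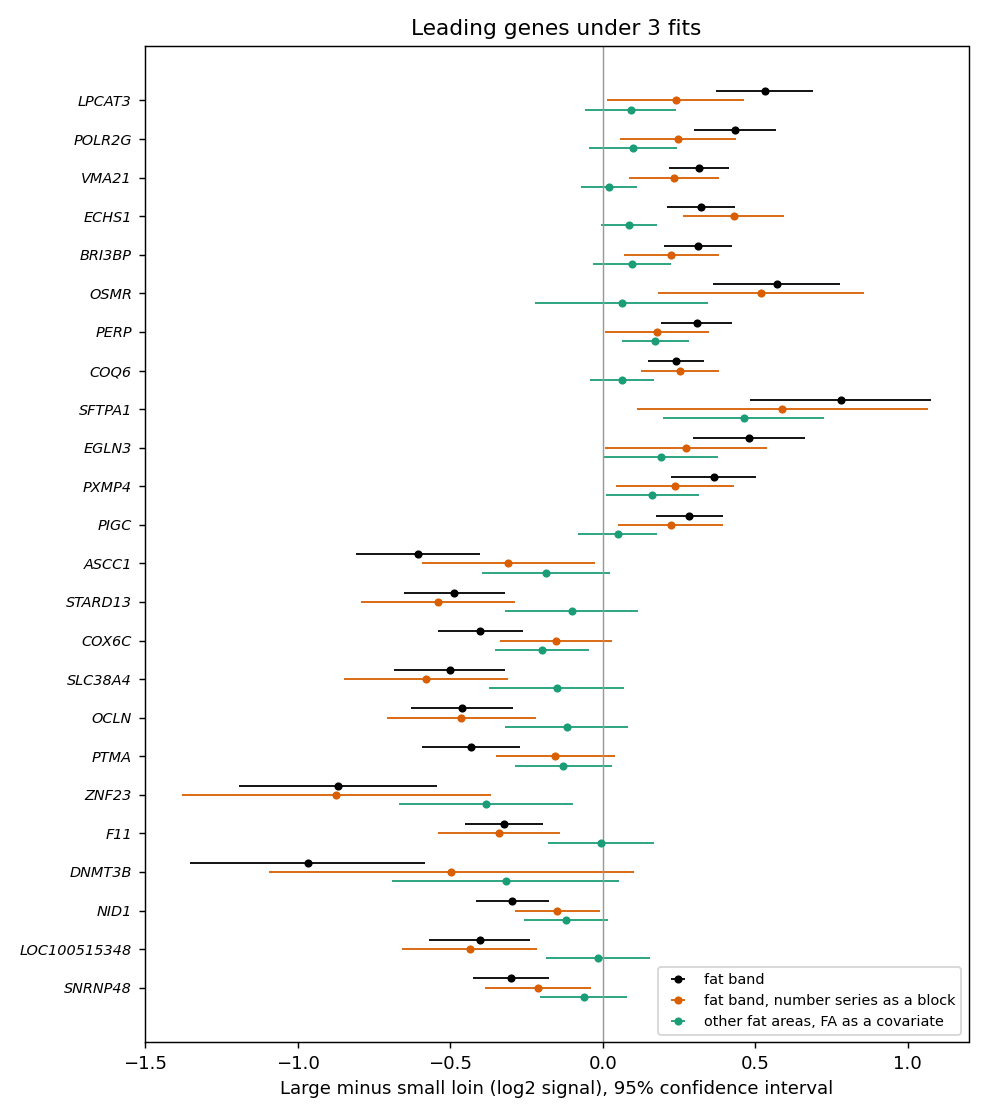
Points are log2 differences, large minus small loin, with 95% confidence intervals, for the 12 leading rises and 12 leading falls down the page. Black is the fat band, orange the fat band with number series as a block and green the pigs of other fat areas with FA as a covariate, where the differences were smaller for most genes.

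The 63 pigs of the band with an LEA between the limits gave a further check, since no group was made of them. Along LEA in these pigs 0 of 47722 probe sets passed in limma, with 1817 at an unadjusted p below 0.05. Of the 452 called probe sets, 324 had a slope of the same direction (71.7%), compared with 60.3% of all probe sets, and 14 of these had p below 0.05. Of the 24 leading genes 16 had the same direction and none had p below 0.05. ARG2 went the other way, with positive slopes for all 8 probe sets, from 0.023 to 0.087 per cm2. The steepest of these had p = 0.00644 (limma, unadjusted). With the series added to the model in these 63 pigs, 267 of the 452 probe sets had the same direction (59.1%), compared with 56.7% of all probe sets. The LEA of these pigs spanned 40.4 to 47.2 cm2, less than the gap between the median large and the median small loin.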

How the data were processed

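One Affymetrix Snowball array was hybridised with liver RNA of each pig. The deposited values are log2 signals from the authors' robust multichip average (RMA), with no further adjustment stated for the deposited table, and GCOS 1.1.1 is named in the submitters' processing notes. Control probe sets (123 of 47845) were left out. Symbols came from the platform annotation and were present for 26426 probe sets, and 446 were updated through RefSeq. Differences were fitted with limma 3.58.1 in R 4.3.3 and Benjamini-Hochberg adjusted over all 47722 probe sets. The study adjusted for genetic similarity, components, gender and carcass weight, which were not used here. RMA over all arrays removes overall differences in brightness, so that values are relative. Precision is limited by how many arrays each group has.

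Named genes were the 12 symbols with the smallest p in each direction, the called members of 56 lists or else the member of each list with the smallest p (not all are described), and ARG2, TAT, GOT1, NSUN3, SLC25A4, PERP and IGF1. The smallest-p probe set stood for a leading gene and the brightest for a list member. Pigs, lists and tests were chosen with earlier results of these data known. The fits were tested on simulated data, drawn without an effect of number series and without correlation between probe sets. Those data therefore cannot show how the unequal spread of the groups over the series affects the fits. The alternatives were number series as a fixed or random block, single series, stricter or continuous LEA, covariates, filters, centring, a rank-sum test, array weights and a trended robust fit. The meaning of the number series is not given in the sources used here.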

Additional observations from a re-analysis of the deposited data

How the results depend on the processing

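The count of called probe sets, 452, moved with most choices. It was 3291 with number series as a fixed block, 18 as a random block, 0 in series 29 alone, 241 without series 21, 997 without series 27, 9 with an LEA of at least 49 against at most 39 cm2 (25 and 16 pigs), 1863 with LEA as a number in all pigs of the band, 1725 with the first principal component, 768 with arrays centred, 220 by the rank-sum test, 916 with array weights and 70 at an FDR of 1%. Of settings added after seeing the data, the second component gave 90 calls, block with KDM6A and EIF2S3 gave 2110, and block with the first component gave 0, also as changes of the blocked count of 3291, which fell to 0 without the 5 farthest pigs. Outside the band, 7 calls became 0 with series. The count stayed within 1.5 times under FA as a covariate (530), the filter for bright probe sets (407), the trended robust fit (444), KDM6A and EIF2S3 alone (604) and without the 5 farthest pigs (577). Signs of genes of the naming rule, each by the probe set that stood for it, turned as follows. Of these probe sets only those of ELOVL6 and LPIN1 had been called. With the block, ELOVL6 was -0.0036, PSMA4 -0.0095, NSUN3 -0.088, IGF1 -0.30, GOT1 0.014, CD3E 0.038, FTH1 0.050, SRY 0.066, PCCB 0.073, CELA1 0.087, TNNI2 0.095, SLC4A1 0.11 and CD79B 0.21. With block, KDM6A and EIF2S3, LPIN1 was 0.044, NSUN3 -0.054, IGF1 -0.53, ARG2 0.0071, FST 0.026, CELA1 0.038, TNNI2 0.056, FTH1 0.070, PCCB 0.071, SRY 0.078, CD3E 0.080, SLC4A1 0.11, GOT1 0.15 and CD79B 0.16. With block and first component, IGF1 was -0.041, CEBPA -0.073, CD79B 0.019, FST 0.028, SRY 0.052, PCCB 0.065, DUSP1 0.079, CD3E 0.082 and BAG3 0.24. In series 29 alone, ATP5C1 was -0.058, NSUN3 -0.18, IGF1 -0.29, PCCB 0.034, CELA1 0.039, FTH1 0.079, SLC4A1 0.082, SRY 0.10, TNNI2 0.15, GOT1 0.18, CD3E 0.24 and CD79B 0.27. With the random block SLC4A1 was 0.0038 and SRY 0.031, with the second component TMSB4X was 0.066, and SRY was 0.00042 without series 21, 0.095 without series 27 and 2.252e-05 with arrays centred. Outside the naming rule, a called probe set of TNNI2 went from -0.37 to 0.057 with the block. SGK1 went from -0.36 to 0.12 and ZBTB16 from -0.33 to 0.16, and neither had been called. The cause of these changes was not tested. No paired analysis was possible because the labels number each pig on its own and pair none.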

Other observations

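Probe sets for microRNA precursors were also among the called ones, 18 in all by the names of their probe sets, most designed on human, cattle or mouse entries. Above the dimmest 20% of probe sets, 9 were lower and 2 higher in large-loin pigs. All probe sets above the dimmest 20% gave 194 lower and 161 higher calls. Of all 47722 probe sets 0.947% were called, and the share among the microRNA probe sets was not counted. The probe set of MIR383 had a median of 8.11 in large-loin pigs and 8.73 in small-loin pigs and fell by 0.65 (FDR 0.011 in limma), and that of MIR195 had 5.91 in large-loin pigs and 6.295 in small-loin pigs and fell by 0.45 (FDR 0.0475). MIR185, with a median of 7.52 in large-loin pigs and 7.185 in small-loin pigs, rose by 0.27 (FDR 0.0188). MIR100 rose by 0.62 (FDR 0.011), and by 0.67 with number series as a block (FDR 0.0344), but its medians of 2.71 in large-loin pigs and 2.015 in small-loin pigs lay in the dimmest 20% of probe sets, all of whose calls were higher in large-loin pigs. Array probes on a precursor do not separate it from its mature form.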
